A study of Mus musculus with 8 samples.

Results

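The genes described here are 8 that encode small intracellular carriers: the fatty acid-binding proteins Fabp3, Fabp5 and Fabp7, the retinoic acid-binding proteins Crabp1 and Crabp2, and the metallothioneins Mt1, Mt2 and Mt3. They are 8 of the 19935 genes measured. Fabp3, Crabp1 and Mt1 were picked because they part 2 small interfering RNAs (siRNAs) aimed at the same target, and the other 5 are their family members. The difference between the siRNAs in those 3 genes is therefore given as a description and supports nothing.

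RNA of R1 mouse embryonic stem cells, grown so as to stay pluripotent, was hybridised to microarrays 48 hours after siRNA transfection. The control siRNA was used for 3 arrays, siRNA 1 against CnAb1 for 3 and siRNA 2 against CnAb1 for 2. CnAb1 is made by alternative splicing of Ppp3cb, which encodes a catalytic subunit of the phosphatase calcineurin. All groups share the line, the transfection and the time point, and no stable clone is involved. The design asks which transcripts differ when CnAb1 is targeted, and a pair of siRNAs allows that to be read separately for each.

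Fatty acid-binding and cellular retinoic acid-binding proteins belong to one family of intracellular lipid-binding proteins, each folded as a barrel around a hydrophobic ligand. Fabp proteins carry long-chain fatty acids to membranes, mitochondria and nuclear receptors, and Crabp proteins carry retinoic acid either to its receptors or to the enzymes that degrade it. Metallothioneins are cysteine-rich proteins that bind zinc and copper, and their genes are known for induction by metals through the factor Mtf1 and by stress hormones. Retinoic acid drives stem cells out of pluripotency, and the Crabp genes are among those studied in that setting.

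The sequences before the annotated starts of the 3 picked genes are given with that of Mt2, the direct neighbour of Mt1, because Mt1 and Mt2 are classic metal-responsive genes and only Mt1 was picked. Each holds the 250 bases before the start, from RefSeq on GRCm38.p6, plus strand, 5′ to 3′. Capitals mark the core of the metal response element bound by Mtf1, searched as TGCACNC or TGCGCNC on both strands. The windows are chr4:130308488-130308737 for Fabp3, chr9:54764498-54764747 for Crabp1, chr8:94178839-94179088 for Mt1 and chr8:94172368-94172617 for Mt2.
Fabp3: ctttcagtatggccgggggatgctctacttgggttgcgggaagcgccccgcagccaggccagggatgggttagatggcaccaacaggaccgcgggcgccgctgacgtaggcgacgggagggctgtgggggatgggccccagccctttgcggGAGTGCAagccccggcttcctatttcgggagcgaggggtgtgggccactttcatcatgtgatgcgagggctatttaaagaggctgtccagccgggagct
Crabp1: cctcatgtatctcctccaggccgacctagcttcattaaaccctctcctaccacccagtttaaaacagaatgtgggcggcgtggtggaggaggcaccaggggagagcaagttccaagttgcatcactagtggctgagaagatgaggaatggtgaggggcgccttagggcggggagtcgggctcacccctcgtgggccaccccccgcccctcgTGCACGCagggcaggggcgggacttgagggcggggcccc
Mt1: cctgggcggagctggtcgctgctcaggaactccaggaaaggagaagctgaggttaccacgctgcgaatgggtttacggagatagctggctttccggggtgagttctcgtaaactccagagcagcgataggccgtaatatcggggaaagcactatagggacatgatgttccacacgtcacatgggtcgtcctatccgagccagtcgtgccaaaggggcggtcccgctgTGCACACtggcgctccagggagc
Mt2: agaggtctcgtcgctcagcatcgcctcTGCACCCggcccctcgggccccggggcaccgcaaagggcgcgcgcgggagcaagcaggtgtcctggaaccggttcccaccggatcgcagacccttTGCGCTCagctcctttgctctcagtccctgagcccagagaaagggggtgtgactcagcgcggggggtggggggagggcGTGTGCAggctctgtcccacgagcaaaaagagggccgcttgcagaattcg

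The core was found at 1 place before each of Fabp3, Crabp1 and Mt1 and at 3 places before Mt2. Only these windows were searched, so cores after an annotated start or farther before it are not counted. Of 32851 promoter windows of this length 21.4% held at least 1 and 1.26% held 3 or more, overlapping matches included. The windows of Fabp7 and Mt3 held 0. The half-site of retinoid and related nuclear receptors, AGGTCA on either strand, was found in 0 of the 4 windows shown and once before Fabp7, and 14.0% of all windows held it. Windows were found for 6 of the 8 genes, not for Fabp5 or Crabp2. The metallothionein genes lie side by side on chromosome 8 in RefSeq, in the order Mt4, Mt3, Mt2, Mt1.

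Values are log2 expression per probe set, the brightest probe set of each gene, and probe brightness does not compare levels between genes. The leading axis of variation, with 45.2% of the variance, cut across the groups: siRNA 1 replicates 1 and 2 lay at its opposite ends, with scores of -13.2 and 15.7. The lower quartile over the tested genes was likewise lowest (7.07) and highest (7.25) on those arrays. Stem cell markers were bright on every array: the mean of the 12 markers listed, such as Pou5f1, Nanog and Dppa5a, ran from 12.45 to 12.49 in control cells, 12.45 to 12.54 with siRNA 1 and 12.39 to 12.45 with siRNA 2. The targeted gene Ppp3cb had a mean of 10.63 ± 0.07 (SD, n = 3) on control arrays. It was 10.76 ± 0.29 for siRNA 1 (n = 3) and 11.11 ± 0.07 for siRNA 2 (n = 2). Both siRNA means lay above control, which is not the direction of a knockdown. Both siRNA 2 arrays lay above all controls, as in 13.4% of genes. The annotation ties the probe set to the gene and says nothing of the splice variant, so whether CnAb1 itself was lowered was not tested.

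**Figure D1:**
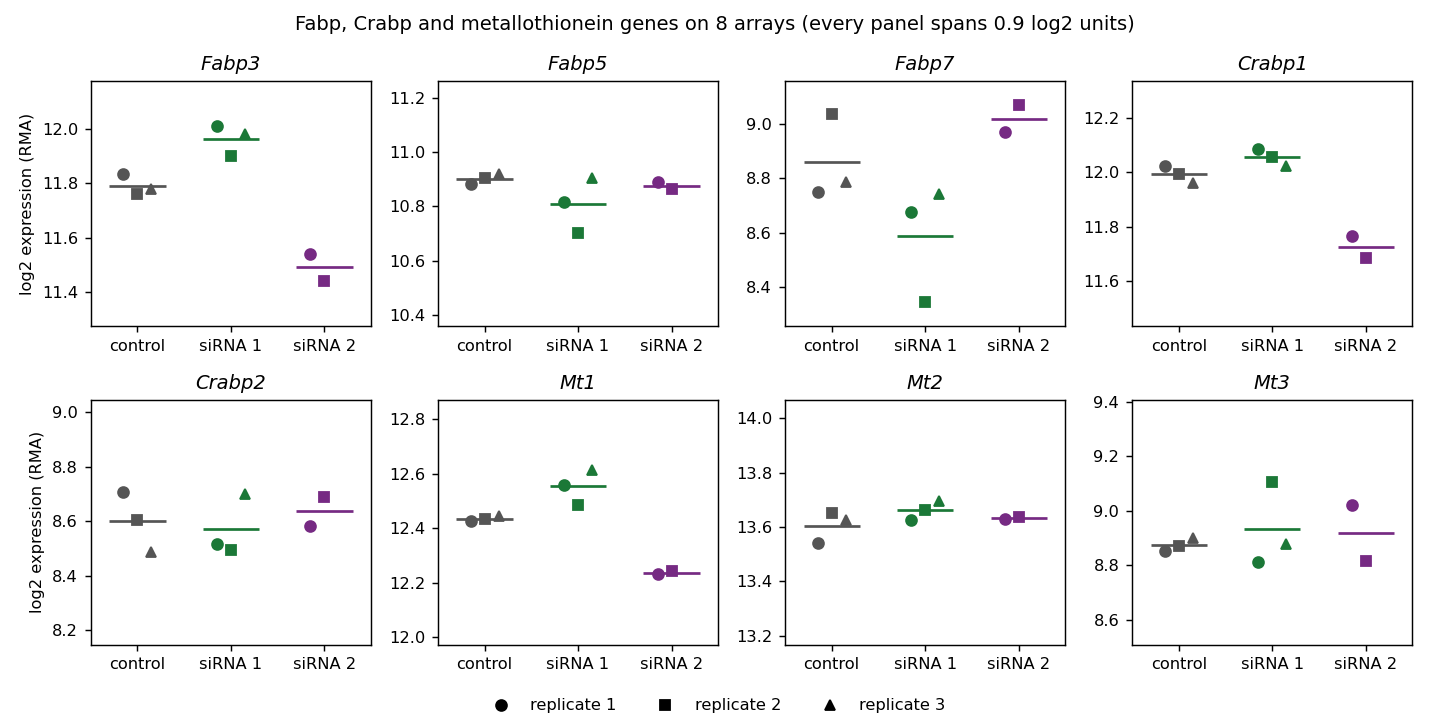
Log2 expression of the 8 genes on each array, by siRNA group, with 1 symbol per array and a line at the group mean (n = 3, 3 and 2). Each vertical axis spans the same number of log2 units. In Fabp3, Crabp1 and Mt1 both siRNA 2 arrays lie below every other array, while the Fabp5, Crabp2, Mt2 and Mt3 probe sets shown overlap between siRNA 1 and siRNA 2.

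Fabp3, the carrier first known from heart and muscle, had the widest gap between the siRNAs. It read 11.83, 11.76 and 11.78 on the control arrays, 12.01, 11.90 and 11.98 with siRNA 1, and 11.54 and 11.44 with siRNA 2. No group overlapped another: siRNA 1 was highest, control lay between and siRNA 2 was lowest. The means were 11.79 ± 0.04 (SD, n = 3), 11.96 ± 0.06 (n = 3) and 11.49 ± 0.07 (n = 2). siRNA 2 thus lay 0.47 below siRNA 1 on the log2 scale, which makes siRNA 1 1.39-fold higher. Control sat off the middle, 0.17 below siRNA 1 and 0.30 above siRNA 2.

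Crabp1, the retinoic acid carrier linked to its breakdown, kept to a narrower range. It read 12.02, 12.00 and 11.96 on the control arrays, 12.09, 12.06 and 12.02 with siRNA 1, and 11.76 and 11.68 with siRNA 2. Control and siRNA 1 were neighbours, with the highest control array only 0.003 below the lowest siRNA 1 array. The means were 11.99 ± 0.03 (n = 3), 12.06 ± 0.03 (n = 3) and 11.72 ± 0.06 (n = 2), so that siRNA 2 lay 0.27 below control and 0.33 below siRNA 1. siRNA 1 lay 0.06 above control, about as far apart as the arrays of either group.

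Mt1, one of the pair of widely expressed metallothioneins, had the narrowest range of the 3. It read 12.43, 12.43 and 12.45 on the control arrays, 12.56, 12.49 and 12.61 with siRNA 1, and 12.23 and 12.24 with siRNA 2. The groups again did not overlap and stood in the same order as for Fabp3. Means were 12.44 ± 0.009 (n = 3), 12.55 ± 0.06 (n = 3) and 12.24 ± 0.007 (n = 2). The siRNA 2 mean lay 0.20 below control and 0.32 below siRNA 1, and the siRNA 1 mean lay 0.12 above control.

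The pick rests on these values. Of the 19935 genes, Fabp3, Crabp1 and Mt1 ranked 1, 2 and 4 by limma's moderated statistic for siRNA 2 against siRNA 1, and 4, 44 and 58 by the size of the difference. All siRNA 1 arrays above and all siRNA 2 arrays below every control was seen in 47 genes (0.236% of those tested), and the picks ranked 1, 2 and 4 among these by size. The opposite order was seen in 36 genes (0.181%). In all 3 picks siRNA 1 lay above all controls, as in 6.21% of genes, siRNA 2 below all controls, as in 15.9%, and siRNA 2 below all siRNA 1 arrays, as in 9.89%. The picks were chosen on that contrast, so nothing is read from these shares. Without siRNA 1 replicates 1 and 2 together the differences were -0.49 for Fabp3, -0.30 for Crabp1 and -0.38 for Mt1, and with each array's lower quartile in the model -0.47, -0.33 and -0.32. These too are values of the contrast used for picking and are given as a description.

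**Figure D2:**
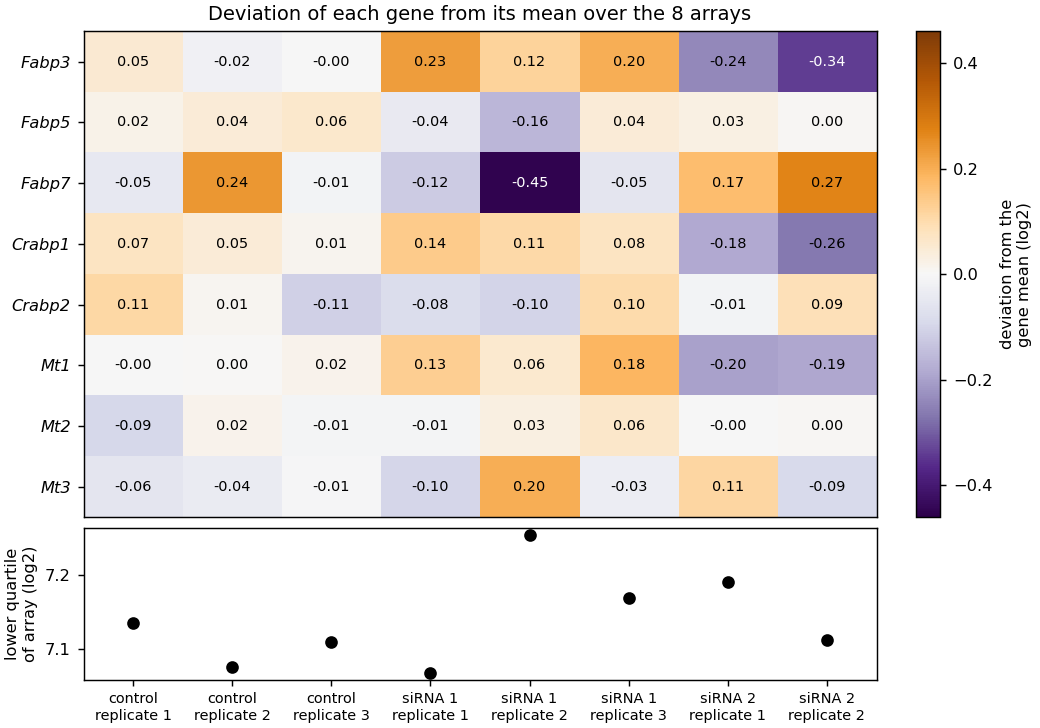
Deviation of each gene from its own mean over the 8 arrays (log2), with genes as rows and arrays as columns, above the lower quartile of each array over all tested genes (log2). Fabp3, Crabp1 and Mt1 share positive values on the 3 siRNA 1 arrays and negative values on both siRNA 2 arrays, and the largest deviation of Fabp7 falls on siRNA 1 replicate 2, the array with the highest lower quartile (7.25).

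The relatives of the picks did not share that pattern. Mt2, which lies next to Mt1 and encodes the other widely expressed metallothionein, read 13.54, 13.65 and 13.63 on the control arrays, 13.62, 13.66 and 13.70 with siRNA 1, and 13.63 and 13.64 with siRNA 2. All 3 groups overlapped, and the whole range over 8 arrays was 0.157, where 14.9% of genes had a smaller one. siRNA 2 differed from siRNA 1 by -0.03 (SE 0.06, 95% interval -0.16 to 0.10; limma adjusted p = 0.9998). The Mt2 probe set is among the brightest, with 99.7% of genes at a lower mean, and whether so bright a probe set compresses differences was not tested. Mt3, the metallothionein best known from brain, read 8.85 to 8.90 on the control arrays, 8.81 to 9.11 with siRNA 1 and 8.82 to 9.02 with siRNA 2. Its highest array was siRNA 1 replicate 2. The difference of siRNA 2 from siRNA 1 was -0.01 (SE 0.09, 95% interval -0.22 to 0.20; adjusted p = 0.9998), and it turned to 0.008 with arrays centred on their medians.

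Crabp2, the carrier that hands retinoic acid to its receptors, overlapped between all groups. It read 8.49 to 8.71 on the control arrays, 8.50 to 8.70 with siRNA 1 and 8.58 to 8.69 with siRNA 2. siRNA 2 differed from siRNA 1 by 0.07 (SE 0.09, 95% interval -0.13 to 0.26; adjusted p = 0.9998). Without siRNA 1 replicates 1 and 2 together the value was -0.07. Fabp5, the epidermal fatty acid-binding protein, read 10.88 to 10.92 on the control arrays, 10.70 to 10.91 with siRNA 1 and 10.86 to 10.89 with siRNA 2. Its difference was 0.07 (SE 0.07, 95% interval -0.08 to 0.22; adjusted p = 0.9998), and -0.03 without siRNA 1 replicates 1 and 2 together.

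Fabp7, the brain-type fatty acid-binding protein of radial glia, stood in the opposite order. It read 8.75, 9.04 and 8.79 on the control arrays, 8.68, 8.35 and 8.74 with siRNA 1, and 8.97 and 9.07 with siRNA 2. Both siRNA 2 arrays lay above all siRNA 1 arrays, and control replicate 2 lay between the siRNA 2 arrays. siRNA 2 was 0.43 above siRNA 1 (SE 0.12, 95% interval 0.15 to 0.71, 1.35-fold), the 7th largest difference upward among all genes, but it did not pass the threshold (limma adjusted p = 0.9998). The difference rested in part on siRNA 1 replicate 2, the lowest array. Without siRNA 1 replicates 1 and 2 together it was 0.28, and limma's adjusted p ran from 0.277 to 0.9999 over the alternatives tried. Nestin (Nes), a neural progenitor marker, showed a difference of 0.22 (SE 0.12) on the same arrays, and -0.05 without siRNA 1 replicates 1 and 2 together. The 10 neural markers tested had a median difference of -0.004, with their mean level at 8.19 to 8.21 on the control arrays, 8.12 to 8.26 with siRNA 1 and 8.21 to 8.24 with siRNA 2. Their part in the Fabp7 values was not tested. These are bulk samples, in which fewer cells of a type and less RNA per cell cannot be told apart.

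Among the 5 relatives, limma called 0 at an adjusted p under 0.05 between the siRNAs, as it called 0 of all 19935 genes (0%), with 893 genes at an unadjusted p under 0.05 (4.48%). Moderation with trend and robust settings called 3 genes in this comparison, all lower with siRNA 2, and none of the 5 relatives was among them. Fabp3, Crabp1 and Mt1 were picked on this contrast, so a call here is no test of them. siRNA 2 and siRNA 1 did not overlap in 1 of the 5 relatives, Fabp7, against 15.4% of all genes (5.54% with siRNA 2 higher). Nothing in the labels gives the replicates separate cultures, so the p-values measure only how far these samples spread, and that spread may be technical.

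Fabp3 and Fabp5 each had a second probe set, annotated with the same accessions. The second Fabp3 probe set read 11.63, 11.55 and 11.59 on the control arrays, 11.75, 11.76 and 11.80 with siRNA 1, and 11.37 and 11.20 with siRNA 2. Its groups were ordered as on the first and did not overlap, and siRNA 2 lay 0.49 below siRNA 1 against 0.47 on the first. Over the 8 arrays the pair correlated with r = 0.984 (Fabp3) and 0.957 (Fabp5), given as a description. The second Fabp5 probe set read 10.54 to 10.60 on the control arrays, 10.35 to 10.52 with siRNA 1 and 10.52 to 10.54 with siRNA 2. On it no group overlapped another, with control highest and siRNA 1 lowest, whereas all groups overlapped on the first. The gaps were 0.023 between siRNA 1 and control, 0.003 between siRNA 2 and control and 0.002 between the siRNAs. Of all genes 10.8%, 29.4% and 15.4% did not overlap in these comparisons. Both probe sets of a gene come from the same RNA and arrays, and whether they share probes or detect a related copy is not known here, so they are not replicates.

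**Figure D3:**
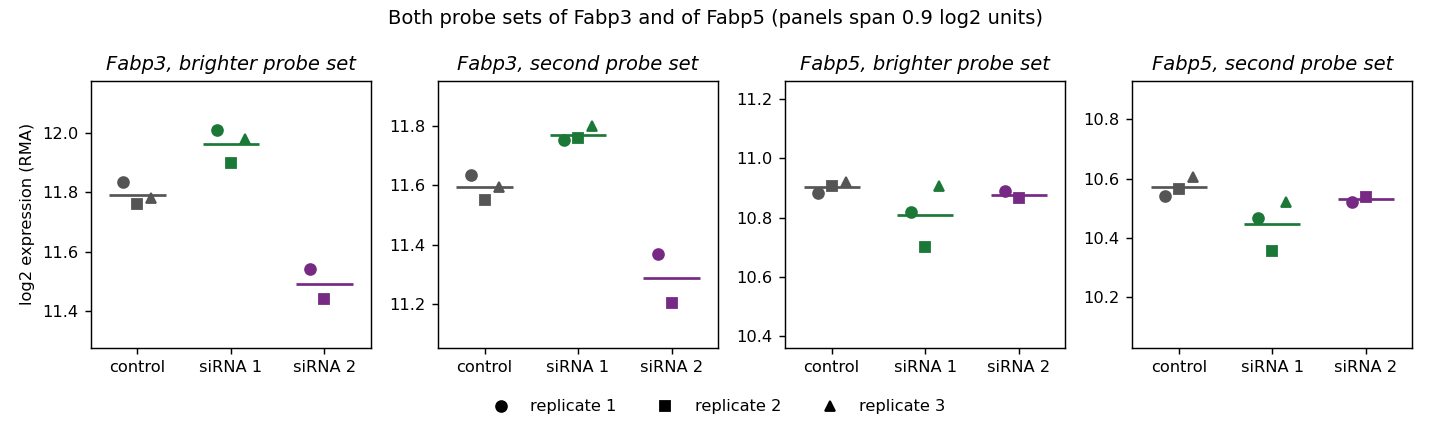
Log2 expression of both probe sets of Fabp3 and of Fabp5 on each array, by siRNA group, with a line at the group mean (n = 3, 3 and 2). Both Fabp3 probe sets place siRNA 2 lowest and siRNA 1 highest, while both Fabp5 probe sets have their lowest value on siRNA 1 replicate 2.

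The average of both siRNAs against control asks what the siRNAs share, and it was not the contrast used in picking the genes. It does use the same siRNA arrays as that contrast. For Fabp3, Crabp1 and Mt1 it is therefore not independent of the pick, and their adjusted p-values are given as a description. In this average the 8 genes differed from control by -0.10 to 0.05. Between control and that average 3 were higher and 5 lower, with a median difference of -0.05 against 0.01 over all genes. Values on opposite sides of control average out here: Fabp3 differed by -0.06 (SE 0.05, limma adjusted p = 0.809), Mt1 by -0.04 (SE 0.05, adjusted p = 0.859) and Fabp7 by -0.05 (SE 0.10, adjusted p = 0.911). Crabp1 was nearest to a call at -0.10 (SE 0.05, adjusted p = 0.769), its siRNA 1 mean lying 0.06 above control and its siRNA 2 mean 0.27 below. Fabp5 differed by -0.06 (SE 0.05), Mt2 by 0.04 (SE 0.05), Mt3 by 0.05 (SE 0.08) and Crabp2 by 0.003 (SE 0.07). Limma called 0 of the 8 (adjusted p 0.769 to 0.993) and 0 of all genes (0%), with 1257 at an unadjusted p under 0.05 (6.31%). Array weights called 14 of the 19935 genes, and 0 of the 8 were among them. All 5 siRNA arrays lay on one side of all controls for 0 of the 8, against 4.74% of genes (2.49% higher and 2.25% lower). The widest 95% interval, that of Fabp7, ran from -0.28 to 0.17, and no interval of the 8 reached below -0.28 or above 0.22.

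**Figure D4:**
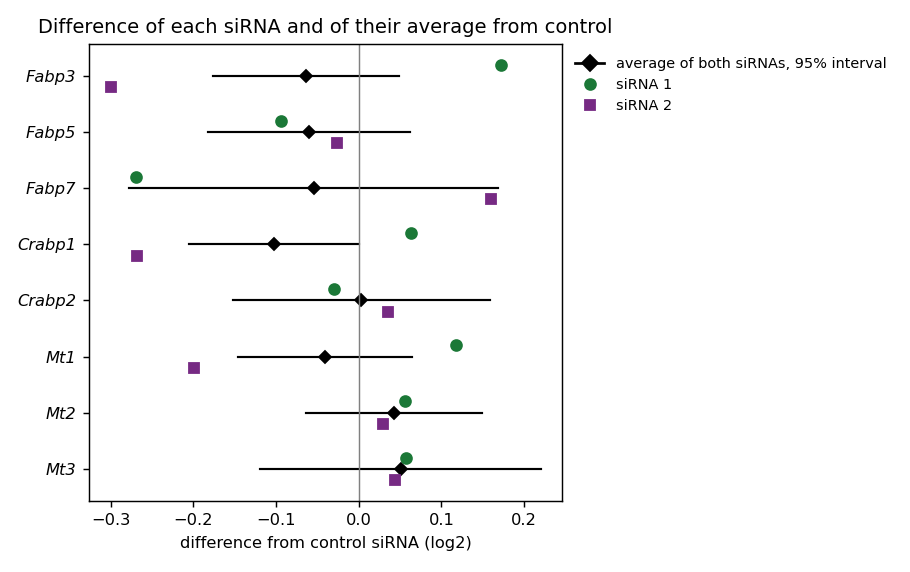
Difference from control siRNA (log2) for siRNA 1, siRNA 2 and the average of both, with the 95% interval of the average from limma. The averages lie between -0.10 and 0.05, while the siRNA 1 and siRNA 2 points of Fabp3, Crabp1, Mt1, Fabp7 and, close to 0, Crabp2 lie on opposite sides of 0.

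Each siRNA was also set against control for the 5 relatives. With siRNA 1 Fabp7 differed by -0.27 (SE 0.11, 95% interval -0.52 to -0.02; limma adjusted p = 0.870), with all siRNA 1 arrays below all controls, as in 4.56% of genes (10.8% do not overlap in either direction). The gap between the lowest control and the highest siRNA 1 array was 0.008. Fabp5 differed by -0.09 (SE 0.06), Mt2 by 0.06 (SE 0.05), Mt3 by 0.06 (SE 0.08) and Crabp2 by -0.03 (SE 0.08). With siRNA 2 Fabp7 differed by 0.16 (SE 0.12, adjusted p = 0.865), Mt3 by 0.04 (SE 0.09), Crabp2 by 0.04 (SE 0.09), Mt2 by 0.03 (SE 0.06) and Fabp5 by -0.03 (SE 0.07). For both siRNAs the signs of Fabp5, Crabp2 and Mt3 turned under at least 1 alternative, and for siRNA 2 also that of Mt2. Limma called 0 of the 5 relatives and 0 of all genes (0%) for either siRNA, with 1063 (5.33%) and 1211 (6.07%) genes at an unadjusted p under 0.05. Array weights called 1436 of the 19935 genes for siRNA 1 and 0 of the 5 relatives. With 5 genes, nothing is read from that 0. Both comparisons share the control arrays.

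The genes, other than the 8 described here, whose array profiles lay nearest to the picks were found by the mean absolute difference of deviations over the 8 arrays. Nearest to Fabp3 were Renbp, a renin-binding protein with sugar epimerase activity (0.057), the small nucleolar RNA Snord15b (0.063) and Zfp330 (0.065), where the median of 7923 genes compared was 0.178. Crabp1 lay 0.057 and Mt1 0.058 from Fabp3, nearer than Snord15b and Zfp330. These picks were made on the same contrast, so their nearness is given as a description. Nearest to Crabp1 were Med31, a Mediator subunit (0.026), Gatd3a (0.035) and Commd6 (0.042). Nearest to Mt1 were Atp6v1e1, a proton pump subunit (0.039), Ndrg2 (0.040) and Renbp (0.041). Of the relatives Mt2 was nearest to Mt1 at 0.101 and Fabp7 was farthest from each pick, at 0.321 from Fabp3.

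Other genes of the pathways these carriers serve were taken from lists drawn up by known function. Without array weights limma called 0 of the 116 tested entries of these lists in any comparison. In the retinoid pathway (23 genes), the median difference between siRNA 2 and siRNA 1 was 0.001 against -0.01 over all genes, and 7 genes did not overlap (30.4%, against 15.4% of all genes), 4 higher and 3 lower with siRNA 2. Rxrg, a retinoid X receptor, differed by 0.17 (SE 0.08) and Dhrs3, which turns retinal back to retinol, by 0.13 (SE 0.07). For the average of both siRNAs against control Rxrg differed by -0.18 (SE 0.07), below all controls on 5 of 5 siRNA arrays, and Rdh11, a retinol dehydrogenase, by -0.08 (SE 0.07). Of the 23 genes 2 lay below all controls on every siRNA array (8.70%, against 2.25% of all genes), and 0 lay above. With the siRNA average 14 of the 23 were higher than control and 9 lower, with a median of 0.012 against 0.011 over all genes.

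Of the 9 other intracellular lipid-binding genes tested only Rbp7, a retinol carrier, was brighter than the median gene. It differed by -0.08 (SE 0.06) between the siRNA average and control and by -0.11 (SE 0.08) between the siRNAs. With the siRNA average 7 of the 9 were higher than control and 2 lower, with a median of 0.09 against 0.01 over all genes. Of the 9 genes 1 lay above all controls on every siRNA array (11.1%, against 2.49% of all genes). Between the siRNAs 2 were higher and 7 lower with siRNA 2 (median -0.02 against -0.01), and 0 separated without overlap. Among 29 genes of fatty acid uptake and use the median difference between the siRNAs was 0.002, and 6 did not overlap (20.7%, against 15.4% of all genes), 3 in each direction. Acsl4, which activates long polyunsaturated fatty acids, differed by 0.21 (SE 0.07) and Slc27a2, a fatty acid transporter, by 0.14 (SE 0.07). Against control, Scp2, a sterol carrier, differed by -0.14 (SE 0.06) and Cpt1a, the gate of mitochondrial fatty acid oxidation, by -0.09 (SE 0.06).

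Zinc and copper handling was measured by 33 genes. The median difference between the siRNAs was 0.00 against -0.01 over all genes, and 4 did not overlap (12.1%, against 15.4% of all genes), 2 in each direction. Slc30a2, a zinc exporter, had means of 10.19 ± 0.05 (control, n = 3), 10.39 ± 0.22 (siRNA 1, n = 3) and 10.66 ± 0.03 (siRNA 2, n = 2). It differed by 0.33 (SE 0.09, limma adjusted p = 0.769) for the siRNA average against control and by 0.27 (SE 0.11) between the siRNAs, the latter 0.04 without siRNA 1 replicates 1 and 2 together. Slc30a5, a zinc transporter of the secretory pathway, differed by -0.22 (SE 0.07) against control and lay below all controls on 5 of 5 siRNA arrays. Of the 33 genes 2 did so (6.06%, against 2.25% of all genes), and 0 lay above all controls. With the siRNA average 15 of the 33 were higher than control and 18 lower, with a median of -0.015 against 0.011 over all genes. Slc39a10, a zinc importer, differed by 0.14 (SE 0.06) between the siRNAs.

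Oxidative stress and glucocorticoid response were measured by 22 genes, of which limma called 0. Their median difference between the siRNAs was -0.03 against -0.01 over all genes, with 14 lower and 8 higher, and 6 did not overlap (27.3%, against 15.4% of all genes), 5 of them lower. Srxn1, sulfiredoxin, differed by -0.18 (SE 0.07) and Nqo1, a quinone reductase, by -0.37 (SE 0.16). Nqo1 had means of 9.03 ± 0.17 (control, n = 3), 9.02 ± 0.32 (siRNA 1, n = 3) and 8.65 ± 0.09 (siRNA 2, n = 2), and the difference between the siRNAs was -0.17 without siRNA 1 replicates 1 and 2 together. For the siRNA average against control Srxn1 differed by -0.11 (SE 0.06) and Gsr, glutathione reductase, by 0.09 (SE 0.05). None was called (limma adjusted p = 0.9998 for each between the siRNAs).

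Markers of stem cells and of other cells were set beside the picks, with differences given as siRNA 2 minus siRNA 1. Of the 12 stem cell markers 9 were lower with siRNA 2 than with siRNA 1, with a median difference of -0.07 against -0.01 over all genes. How many of all genes were lower was not counted. Tcl1, an Akt coactivator of naive stem cells, differed by -0.29 (SE 0.06) and Fgf4 by -0.17 (SE 0.07), and they are among 3 of the 12 that lay lower on both siRNA 2 arrays than on all siRNA 1 arrays (25%, against 9.89% of all genes). Of the 17 fibroblast markers 10 were lower (median -0.02), with Postn at -0.14 (SE 0.20) and Tagln at 0.09 (SE 0.09). All 8 macrophage and blood markers were lower (median -0.07), and 0 of the 8 separated the siRNAs without overlap. Only 2 of these 8, Lyz2 at -0.11 (SE 0.27) and Cd68 at -0.11 (SE 0.10), were brighter than the median gene. The mean level of these 8 was 7.98 to 8.27 on the control arrays, 8.07 to 8.43 with siRNA 1 and 8.12 to 8.19 with siRNA 2, and that of the 17 fibroblast markers 8.77 to 8.87, 8.82 to 8.99 and, on both siRNA 2 arrays, 8.87. The signs of Postn, Lyz2 and Lama1 turned without siRNA 1 replicate 1. Endoderm markers (13) had a median of -0.02, with Lama1 at -0.17 (SE 0.16) and Dab2 at -0.16 (SE 0.15), and trophoblast markers (10) a median of 0.05, with Ascl2 at -0.17 (SE 0.09) and Eomes at 0.15 (SE 0.09). Pax6, a neural marker, differed by 0.12 (SE 0.06). Limma called 0 of these 70 list entries, among which Pdgfra is listed more than once, with an adjusted p of 0.9998 for each one named, and their part in the values of Fabp3, Crabp1 and Mt1 was not tested.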

How the data were processed

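The deposited files give log2 values per probe set, which the authors summarised with RMA according to the submitters' processing notes. For RMA's software and version, the array library file and the genome build: not given in the sources used here. Because RMA normalizes between arrays, a shift common to most genes is not visible. Of 28815 probe sets, the platform annotation names 1 gene for 21780, several for 1605 and none for 5430. Each gene was read from its brightest single-symbol probe set over the 8 arrays (19935 genes), and 0 symbols changed against RefSeq (GRCm38.p6).

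Groups and replicate numbers came from the sample titles, which speak of differentiation where the series title and growth protocol speak of pluripotent culture. A linear model with 1 mean per group was fitted with limma 3.58.1 (lmFit and eBayes) in R 4.3.3, on all 8 arrays. P-values were two-sided, with Benjamini-Hochberg adjustment over all genes, and genes were called at an adjusted p under 0.05. The procedure was tested on simulated data. The number of arrays limits the precision. Arrays with the same replicate number did not deviate together, and the main model has no replicate block. With so few arrays this cannot decide whether the numbers pair the samples.

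The 8 genes and the lists were chosen with earlier results of these data known. Named list genes are brighter than the median gene and have the smallest unadjusted p for the siRNA average against control and for siRNA 2 against siRNA 1 (2 each), or, for cell markers, the largest difference between the siRNAs (2 each). The 3 nearest profiles per picked gene come from genes with at least 0.5 times its range, without predicted gene models. Alternatives changed the normalization, filter, moderation, array weights, probe set choice, samples fitted, replicate block and covariate, or left out arrays. Python 3.11.15 (numpy 2.4.6, pandas 2.3.3, matplotlib 3.10.9) drew the figures.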

Additional observations from a re-analysis of the deposited data

Results flagged for a closer look

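Among the picked genes and those nearest to them, 8 had every siRNA 1 array above the control mean and every siRNA 2 array below it. The stricter order against every single control array was seen in 47 of all genes. The difference between the siRNAs was not tested independently of the choice of these genes. They are Fabp3, Crabp1 and Mt1, with siRNA 2 minus siRNA 1 at -0.47, -0.33 and -0.32 on the log2 scale, and 5 genes chosen for profiles near theirs. In the latter the difference was -0.39 for Renbp, -0.34 for Snord15b, -0.27 for Med31, -0.20 for Atp6v1e1 and -0.27 for Ndrg2. Zfp330, Gatd3a and Commd6, also chosen for near profiles, did not meet the order against the control mean. The way all 8 were chosen fixes the direction between the siRNAs, not that order. The share of all genes in the order against the control mean was not counted. No group holds enough arrays for a test of single outlying arrays.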

How the results depend on the processing

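Of 70 gene differences, 52 kept their direction under every alternative tried, among them 19 of the 32 of the 8 genes. All 4 comparisons called 0 genes except with 2 alternatives. Array weights called 14 for the siRNA average and 1436 for siRNA 1 against control. Trend and robust moderation called 3 for siRNA 2 against siRNA 1, the contrast used for picking. Array weights gave siRNA 1 replicate 3 a weight of 3.56, against 0.308 and 0.411 for replicates 1 and 2. No cause of these changes was tested.

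Arrays with the same replicate number correlated with a median of -0.21 in their deviations (7 pairs, range -0.55 to 0.22), against 0.11 for other pairs. Deviations from a group mean cancel within the group, so the other pairs are no separate comparison. These values cannot decide whether the numbers pair the samples. The replicate block called 0 genes in all 4 comparisons. It turned Fabp5, siRNA 2 against control, to 0.0029.

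For Fabp5 the sign also turned with quantile normalization (siRNA 2 against control, 0.0057), array weights (siRNA 2 against siRNA 1, -0.0029) and without siRNA 1 replicates 1 and 2 together (siRNA 1 against control 0.0028, siRNA 2 against siRNA 1 -0.029). The siRNA average of Fabp7 was 0.042 with the lower quartile as covariate and 0.023 without those replicates. Crabp2 was -0.0081 for the average with centred arrays. With array weights it was 0.094 for siRNA 1 against control and -0.032 for siRNA 2 against siRNA 1, and without those replicates 0.10 and -0.065. Mt3 with the lower quartile as covariate was -0.029 for the average, -0.032 for siRNA 1, -0.026 for siRNA 2 and 0.0060 between the siRNAs. Between the siRNAs it was 0.0080 with centred arrays, 0.023 with array weights and 0.040 without those replicates. With array weights and without those replicates, markers between the siRNAs were 0.076 and 0.13 for Postn, 0.11 and 0.16 for Lyz2, and 0.067 and 0.14 for Lama1, and Nes was -0.051 without them.

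Leaving out 1 array at a time spanned 0 for the siRNA average against control in Fabp7 (-0.11 to 0.035), Crabp2 (-0.053 to 0.056) and Mt3 (-0.0011 to 0.10). It did so for siRNA 1 against control in Crabp2 (-0.095 to 0.023) and Mt3 (-0.031 to 0.12), and for siRNA 2 against control in Crabp2 (-0.020 to 0.089), Mt2 (-0.0036 to 0.052) and Mt3 (-0.059 to 0.15). Between the siRNAs it did so for Mt3 (-0.12 to 0.090), Postn (-0.27 to 0.13), Tagln (-0.0057 to 0.15), Lyz2 (-0.29 to 0.20) and Lama1 (-0.32 to 0.029).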
